A study of Mus musculus with 28 samples.

Results

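The comparison is between porous polymer implants taken from tumor-free mice at day 14 and at day 7. It uses 11 of the 28 samples of the series, the 8 healthy day 14 samples and the 3 healthy day 7 samples, chosen by the condition and day given in the labels, and all 648 assays of the panel. All mice were female BALB/c with a microporous polycaprolactone (PCL) scaffold, a biodegradable polyester that host cells enter after implantation. The other samples of the series are 3 healthy mice at day 21 and 14 mice inoculated with 4T1 mouse mammary carcinoma cells, taken at days 7, 14 and 21. The labels list the line 4T1-luc2-tdTomato for the healthy mice as well; here mice are grouped by the condition label. The day counts from tumor inoculation, to which the healthy mice were matched in time. The sources used here give neither the interval between implantation and inoculation nor the age of the mice, so the days are not the age of the implant. Each sample came from a separate biological replicate per the labels.

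A porous implant is first entered by neutrophils and monocytes, which are drawn by chemokines and release further inflammatory mediators. In the textbook course of a foreign-body reaction, neutrophils become fewer, macrophages persist and fuse, and fibroblasts lay down matrix under growth factors of the TGF-beta family. In the whole tissue measured here, fewer cells of a type and less RNA per cell cannot be told apart.

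Transcripts were measured by quantitative PCR on TaqMan OpenArray Mouse Inflammation panels, which hold 648 assays for 584 genes. Values are log2 relative quantities: the mean quantification cycle (Cq, how many PCR cycles a reaction needs to be detected) of 5 reference assays minus the Cq of the assay. A value of 0 equals the mean of the reference assays, and 1 unit is a doubling. Assays amplify with their own efficiency, so levels are compared between samples and not between assays. Differences are day 14 minus day 7 from a limma model, with ± for the standard error, and a positive one means a higher level at day 14. Where a gene has several assays they are numbered and given apart.

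Of the 7128 reactions of the 11 samples, 940 (13.2%) gave no value. Day 14 samples had 475 to 586 assays with a value (median 570.5), against 572, 572 and 587 at day 7, and an exact two-sided permutation test over the 165 splits of 8 against 3 samples gave p = 0.43 for the difference. Replicates 13 and 14 of day 14 stood apart, with 475 and 535 assays with a value, where the other day 14 samples had at least 567. Their root mean square deviation from the day 14 median over assays was 1.48 and 1.40 log2 units, against 0.57 to 0.74 in the other 6. Of 24 day 14 reactions more than 4 cycles from the median of their group, 9 were in replicate 13 and 9 in replicate 14, against 1 such reaction at day 7. Panel plates also differ between the days. Panels called A and B here carry 1 sample of each day, panel C carries 1 day 7 sample, and panel D carries 4 day 14 samples and no other sample of the series. Replicates 13 and 14 are the only ones of the 11 samples on their panels, E and F. Within these 11, sample and panel cannot be told apart. The healthy day 21 samples on the same panels had 584 (E) and 582 (F) assays with a value. The tumor-bearing day 14 samples had 489 assays with a value on panel E and 562 on panel F, against 567 to 586 on the other panels. Tumor-bearing day 21 samples had 566 on panel E and 572 on panel F. Why the day 14 counts were low was not tested. Among the markers used to check the tissue, the leukocyte genes Ptprc and Itgam and the matrix gene Fn1 had a value in all 8 day 14 and all 3 day 7 samples. The epithelial gene Krt8 had a value in 5 of 8 day 14 samples and in 3 of 3 day 7 samples, and none of the 4 B cell markers checked is on the panel.

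**Figure D1:**
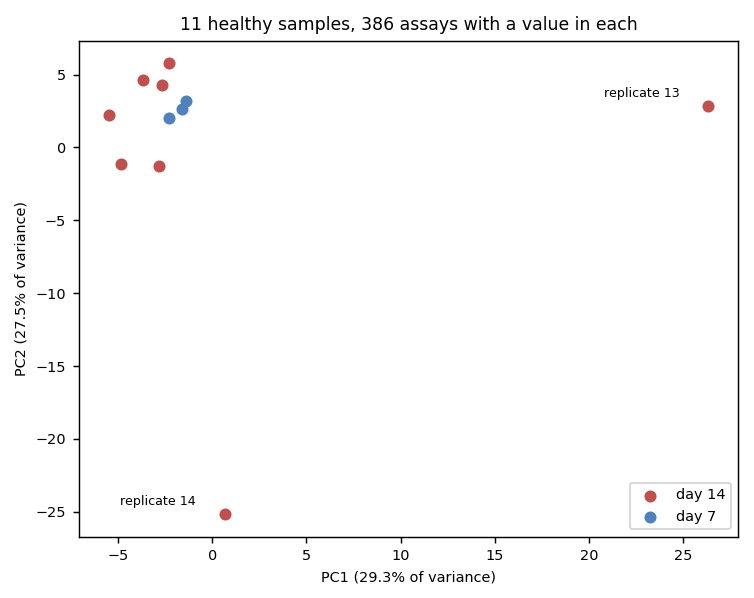
Principal components of the log2 relative quantities over the 386 assays with a value in each of the 11 healthy samples (horizontal axis PC1, 29.3% of variance; vertical axis PC2, 27.5%). Each point is 1 sample; replicates 13 and 14 of day 14 lie far out along PC1 and PC2, while the other 6 day 14 samples lie close to the 3 day 7 samples.

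No gene passed the test between day 14 and day 7. Of 572 assays tested, which cover 513 genes, 0 had a limma adjusted p under 0.05 (percent called 0), and the smallest adjusted p was 0.0956, for Gpr17. At an unadjusted p under 0.05, limma gave 74 assays (12.9%), of which 56 (9.79%) had higher and 18 (3.15%) lower values at day 14. The 4 samples of panel D were also set against the other 4 day 14 samples, without a panel block. At the same unadjusted threshold this gave 75 of 574 assays (13.1%), with 1 past an adjusted p of 0.05. Of those 75, 7 were among the 74. The other 4 samples include replicates 13 and 14, so the count mixes panel with these samples and does not measure the panels alone. The day gave a like number, 74 assays, or 81 without a panel block. Without panel D the day gave 39 higher and 21 lower assays. The median difference over all assays was 0.09, and 59.1% of them were above 0. With each sample's raw Cq centred on its median in place of the 5 reference assays, the median difference was 0.01, 50.9% were above 0, and the assays at unadjusted p under 0.05 were 28 higher and 30 lower; centring by itself brings the balance towards even. With 11 reference assays in place of the 5, they were 51 higher and 21 lower, and 57.5% of all assays were above 0. Values of the 2 groups did not overlap for 25 assays (4.37%), 20 of them higher (3.5%) and 5 lower (0.874%) at day 14. The spread was wider at day 14, with a median SD of 0.50 log2 units over the assays tested, against 0.22 at day 7, and the SD was larger at day 14 for 474 of the 572 assays.

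**Figure D2:**
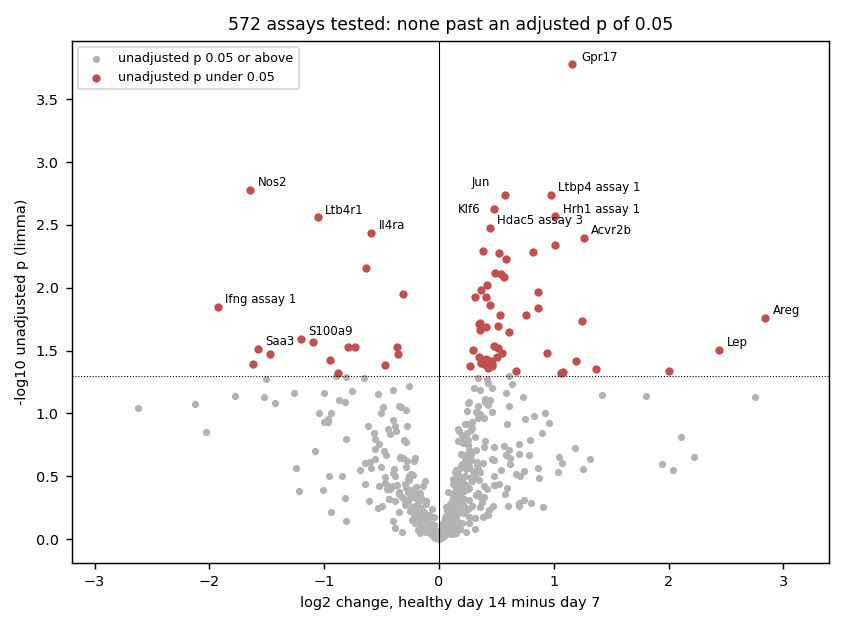
Difference day 14 minus day 7 in healthy mice (horizontal axis, log2) against −log10 of the unadjusted limma p (vertical axis) for the 572 assays tested, 1 point each. Coloured points have an unadjusted p under 0.05 (dotted line); none passed an adjusted p of 0.05, and Gpr17 is the highest point.

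Gpr17, a G protein-coupled receptor best known from oligodendrocyte precursors, had the smallest p. Its log2 relative quantity was −6.67 to −5.70 (median −6.07) in the 8 day 14 samples, against −7.39, −7.32 and −7.16 at day 7. Every day 14 sample lay above every day 7 sample. The difference was 1.16 ± 0.26, a 2.24-fold higher level (95% interval 1.54 to 3.24), and an exact permutation test of this assay alone gave p = 0.0061, the smallest that 165 splits allow. Gpr17 was picked by its p among 572 assays from these same values, and a lack of overlap by itself brings the permutation p to or near that smallest value. Neither the interval nor the permutation p allows for this choice, so they add no separate support. The differences between the 2 samples on panel A and between the 2 on panel B were 1.25 and 1.31. Gpr17 passed the adjusted threshold without replicate 13 (adjusted p = 0.0435) and without replicates 13 and 14 (adjusted p = 0.0247), and in no other of the 26 settings tried.

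The transcription factor genes Jun and Klf6, which belong to the early response of many cell types to stimulation, followed Gpr17 and Ltbp4 among the assays with higher values. Jun was at −0.58 to 0.17 (median −0.13) at day 14, against −0.82, −0.58 and −0.90 at day 7. The groups touched without overlapping, and the difference was 0.57 ± 0.16 (adjusted p = 0.216). Klf6 was at −0.82 to −0.14 (median −0.31) at day 14, against −1.04, −0.77 and −0.93 at day 7, with 7 of 8 day 14 samples above all day 7 samples and a difference of 0.48 ± 0.14 (adjusted p = 0.216). On panel B alone, the day 14 sample differed from the day 7 sample by 0.10 for Jun and by −0.05 for Klf6. A second early response gene, Fos, had 0.76 ± 0.29 in its assay 2 and 0.31 ± 0.30 in its assay 1. Hdac5, which encodes a class II histone deacetylase, had 0.44 ± 0.14 in assay 3 with no overlap, 0.36 ± 0.16 in assay 1 and 0.10 ± 0.23 in assay 2.

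**Figure D3:**
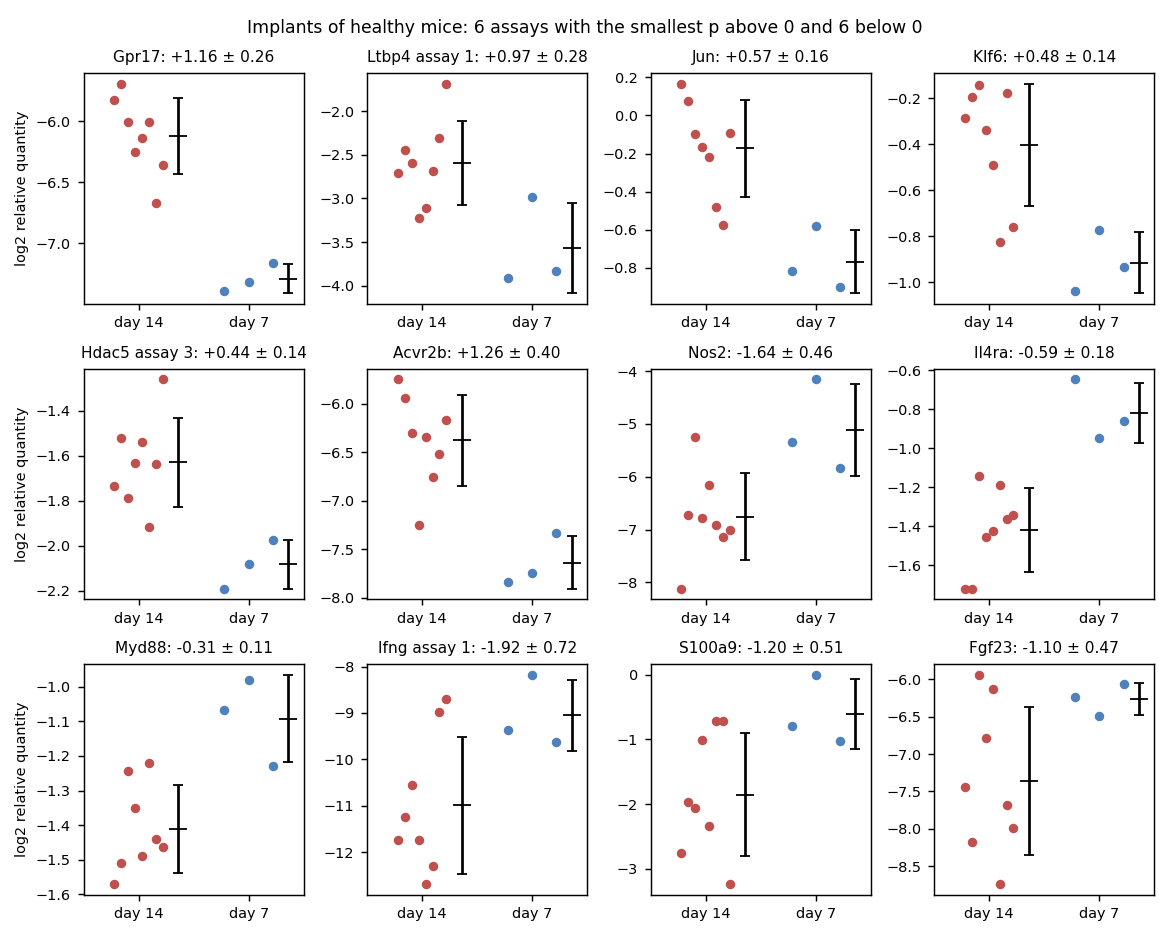
Log2 relative quantity (vertical axes) of the 6 assays with the smallest p above 0 and the 6 with the smallest p below 0, among assays with a value in all 11 healthy samples; day 14 (8 samples) is left of day 7 (3 samples). Points are samples, bars are the mean ± SD, and each title gives the limma difference ± SE; Gpr17, Jun, Hdac5 assay 3 and Acvr2b lie wholly above day 7 and Il4ra wholly below.

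Genes of neutrophils and other granulocytes had lower values at day 14 in most assays, none past the adjusted threshold. Of 11 assays tested for such markers, 7 were below 0 and 4 above, with a median difference of −0.76 against 0.09 over all assays, and 3 had an unadjusted p under 0.05, all lower. S100a9, a subunit of the calcium-binding protein calprotectin that fills the neutrophil cytosol, was at −3.24 to −0.72 (median −2.01) at day 14, against −0.80, 0.00 and −1.02 at day 7. Of the 8 day 14 samples, 5 lay below all day 7 samples, and the difference was −1.20 ± 0.51 (adjusted p = 0.359). S100a8, the other calprotectin subunit, gave −1.47 ± 0.65 in assay 1 and −1.05 ± 0.61 in assay 2. Il8rb (now Cxcr2), the receptor through which neutrophils follow CXC chemokines, was at −5.66 to −4.04 (median −4.99) in 7 day 14 samples, against −4.36, −3.37 and −4.70 at day 7, a difference of −0.79 ± 0.34 (adjusted p = 0.359), which was −0.42 without day 7 replicate 2. Fpr1, a receptor for formylated bacterial peptides, had −0.76 ± 0.40, and Pglyrp1, a granule protein that binds peptidoglycan, −0.65 ± 0.32. Ncf1, 1 of the 4 assays above 0, went the other way at 0.29 ± 0.18, with a value in all 11 samples.

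The granule genes of this group were mixed. Camp, the precursor of an antimicrobial peptide, had −1.25 ± 1.11, whereas Ltf (lactoferrin) had 0.47 ± 0.76, and the proteases of early neutrophils had positive differences with wide errors, Prtn3 0.70 ± 1.06 and Ela2 (now Elane, neutrophil elastase) 1.31 ± 1.06. Prtn3 and Ela2 rested on 3 and 5 day 14 values and on 2 day 7 values each. Without replicates 13 and 14, the group had 7 assays below 0 and 4 above, a median of −0.71 and 3 assays at unadjusted p under 0.05, all lower. With Cq centred on the median, 5 were lower at that threshold, against 1 without panel D and 1 with panel as a fixed block.

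Day 21 healthy samples, compared with the same day 14 samples, stood higher for S100a9 and Il8rb, neither past the adjusted threshold. The other genes of the group are not given for this interval. S100a9 had a mean of −0.05 in the 3 day 21 samples, and the difference day 21 minus day 14 was 1.79 ± 0.50 (limma adjusted p = 0.0936). For Il8rb it was 1.26 ± 0.34 (limma adjusted p = 0.0862). These differences use the same day 14 values as those against day 7, so both move with any shift in the day 14 samples.

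Chemokines that draw monocytes and eosinophils were below 0 in 9 of 10 assays tested, with a median difference of −0.47. Only Ccl7 assay 2 had an unadjusted p under 0.05, at −3.91 to −1.20 (median −2.54) in 7 day 14 samples, against −1.05, −0.97 and −1.96 at day 7. The difference was −0.95 ± 0.43 (adjusted p = 0.359), and the other Ccl7 assay gave −0.97 ± 0.59. Ccl2, the main monocyte attractant acting on Ccr2, had −1.0 ± 0.61. Ccl8, a related ligand, was at −0.15 to 2.67 (median 0.91) at day 14, against 1.97, 2.02 and 2.05 at day 7, with 7 of 8 day 14 samples below all day 7 samples and 1 above, and a difference of −0.94 ± 0.55. Ccl6 had −0.40 ± 0.21, Ccl24 −0.53 ± 0.28, Ccl3 −0.16 ± 0.33 and Ccl4 −0.26 ± 0.35, while the eosinophil attractant Ccl11 had 0.02 ± 0.22. Without replicates 13 and 14 the count below 0 was again 9 of 10, with a median of −0.31 and 0 at unadjusted p under 0.05.

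Of 11 assays for neutrophil-attracting chemokines and growth factors, 7 were below 0, and 2 of these had an unadjusted p under 0.05. Cxcl5, a CXC chemokine made by epithelial and stromal cells, was at −2.21 to −0.12 (median −1.41) at day 14, against −0.72, 0.38 and −0.89 at day 7, a difference of −0.88 ± 0.42 (adjusted p = 0.369), which was −0.50 without day 7 replicate 2. Csf3, which encodes G-CSF, the growth factor for neutrophils, gave −1.62 ± 0.74 in assay 1 (−0.80 without day 7 replicate 2) and 0.03 ± 0.75 in assay 2, so its 2 assays disagree in sign and size. The chemokines Cxcl1, Cxcl2 and Cxcl3 lay between −0.45 and −0.02 over 4 assays. Ppbp, the platelet chemokine, had 1.94 ± 1.65, and its replicate 13 reaction lay −12.9 cycles from the day 14 median.

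Lymphocyte-attracting chemokines had 11 of 16 assays below 0, with a median of −0.05. Ccl25, which guides T cell precursors to the thymus and lymphocytes to the gut, was the assay at unadjusted p under 0.05, with 0.48 ± 0.20 (adjusted p = 0.359). Ccl20, the ligand of Ccr6, had −1.26 ± 0.66 from 6 day 14 values. The interferon-induced ligands of Cxcr3 were near 0 with wide errors, Cxcl9 −0.06 ± 0.75, Cxcl10 0.02 ± 0.85 and Cxcl11 0.00 ± 0.90.

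Genes of classical macrophage activation were below 0 in 19 of 24 assays, with a median of −0.14. Nos2, inducible nitric oxide synthase, had the second smallest p of all assays. It was at −8.12 to −5.25 (median −6.85) at day 14, against −5.35, −4.15 and −5.84 at day 7, and 7 of 8 day 14 samples lay below all day 7 samples. The difference was −1.64 ± 0.46, a level 0.320 times that of day 7 (95% interval 0.165 to 0.621; adjusted p = 0.216), with −0.80 on panel A and −2.75 on panel B. Cd40, a co-stimulatory receptor, had −0.73 ± 0.32 (adjusted p = 0.359). The cytokine Il1b had −0.87 ± 0.47 in assay 1, at −3.04 to −0.40 (median −1.33) at day 14, against −0.79, 0.29 and −1.25 at day 7. Its assay 2 gave −0.04 ± 0.86, with the replicate 14 value at 3.21 and no other day 14 value above −1.56. Tnf had −0.35 ± 0.44, the 3 Il6 assays −0.39 to −0.20, and Il1a −0.62 ± 0.39. Ptgs2, inducible cyclooxygenase, had 0.91 ± 1.51, with its replicate 14 reaction −10.7 cycles from the day 14 median. Without replicates 13 and 14, 17 of the 24 assays were below 0 with a median of −0.26, and on panels A and B alone 20 of 24 were.

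Genes tied to alternative macrophage activation were mixed, with 8 of 14 assays below 0 and a median of −0.18, which was 0.04 on panels A and B alone. Il4ra, the receptor chain shared by IL-4 and IL-13, was at −1.72 to −1.14 (median −1.39) at day 14, against −0.65, −0.95 and −0.86 at day 7. All 8 day 14 samples lay below all day 7 samples, and the difference was −0.59 ± 0.18 (adjusted p = 0.216), with −0.78 on panel A and −0.24 on panel B. Pparg, a lipid-sensing nuclear receptor of macrophages and adipocytes, pointed the other way with 0.46 ± 0.21 in each of its 2 assays (adjusted p = 0.359 for both). Chi3l3 (now Chil3), a chitinase-like macrophage protein, had −0.97 ± 0.59, Il10 −0.52 ± 0.58, Mrc1 −0.27 ± 0.33 and Cd163 0.10 ± 0.42.

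General markers of monocytes and macrophages had differences close to 0. The 5 assays ran from −0.21 to 0.05: Cd14, a co-receptor for lipopolysaccharide, had −0.21 ± 0.17, the integrin chain Itgam −0.12 ± 0.18, the chemokine receptors Ccr2 −0.02 ± 0.32 and Cx3cr1 −0.00 ± 0.17, and Fcgr2b 0.05 ± 0.37. Their 95% intervals still allow differences, for Itgam from −0.48 to 0.25. Itgb2, the beta chain that pairs with Itgam and other leukocyte integrins, was at 2.33 to 2.78 (median 2.55) at day 14, against 1.85, 2.27 and 2.39 at day 7, with 7 of 8 day 14 samples above all day 7 samples and a difference of 0.38 ± 0.12 (adjusted p = 0.216), which was 0.22 without day 7 replicate 1. Ptprc (CD45), carried by all leukocytes, had 0.41 ± 0.18 (adjusted p = 0.359). Csf2ra, the GM-CSF receptor alpha chain of myeloid cells, was at 0.36 to 1.14 (median 0.56) at day 14, against 0.10, 0.06 and 0.25 at day 7, without overlap, and the difference was 0.48 ± 0.17 (adjusted p = 0.246).

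**Figure D4:**
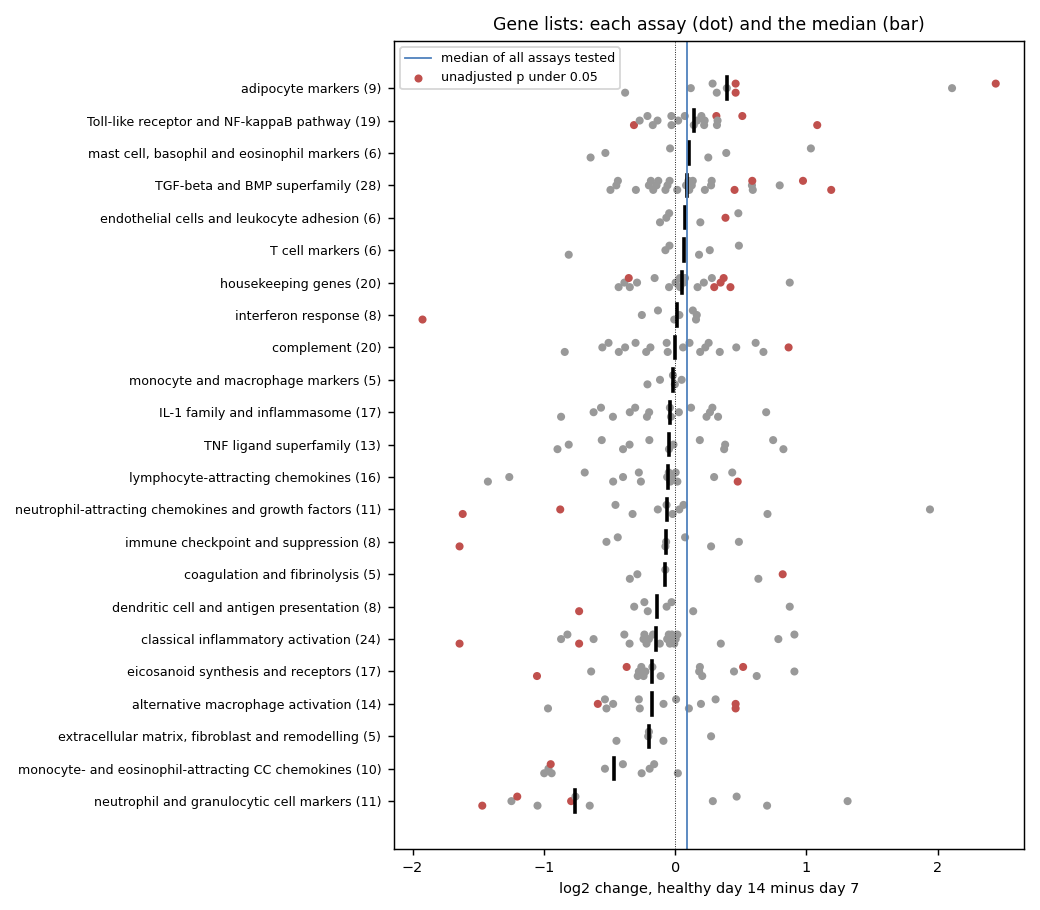
Differences day 14 minus day 7 in healthy mice (horizontal axis, log2) for the gene lists with at least 5 assays tested (rows, number of assays in brackets). Each dot is an assay, coloured where its unadjusted limma p is under 0.05, black bars are list medians and the vertical line is the median of all assays, 0.09; neutrophil markers (−0.76) and CC chemokines (−0.47) have the lowest medians and adipocyte markers (0.39) the highest.

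Toll-like receptor and NF-kappaB genes were above 0 in 12 of 19 assays (63.2%), near the 59.1% of all assays, with a median of 0.14. With Cq centred on the median, 10 of the 19 were above 0, with a median of 0.05. Myd88, the adaptor shared by most Toll-like receptors and the IL-1 receptor, was at −1.57 to −1.22 (median −1.45) at day 14, against −1.07, −0.98 and −1.23 at day 7, a difference of −0.31 ± 0.11 (adjusted p = 0.272), with 7 of 8 day 14 samples below all day 7 samples. The kinases that act next to Myd88 had positive differences, Irak2 0.31 ± 0.12 (adjusted p = 0.272), Irak4 0.51 ± 0.20 and Irak1 1.08 ± 0.51, while Irak3, an inhibitor of the pathway, had −0.03 ± 0.37. The Toll-like receptors themselves lay between −0.27 and 0.22. The IL-1 family and inflammasome had 10 of 17 assays below 0, a median of −0.04 and 0 assays at unadjusted p under 0.05, with Il1r1 at 0.28 ± 0.17, Nlrp3 at −0.35 ± 0.42 and Casp1 at 0.12 ± 0.13.

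Interferon response genes split evenly, 4 of 8 above 0, with a median of 0.01. Ifng assay 1, for the type II interferon of T and NK cells, was at −12.70 to −8.70 (median −11.49) at day 14, against −9.36, −8.18 and −9.62 at day 7, a difference of −1.92 ± 0.72 (adjusted p = 0.297). It passed the adjusted threshold without replicates 13 and 14 and on panels A and B alone, and in no other of the 26 settings tried. Over these settings its difference ran from −3.73 to −0.07, with a limma adjusted p of up to 0.97. Its assay 2 gave −0.13 ± 0.78 from 8 day 14 and 2 day 7 values, so the 2 assays of the gene disagree in size. The receptor chains Ifnar1 and Ifnar2 each had 0.16, with SE 0.11 and 0.17.

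The 6 T cell markers ran from −0.81 (Cd40lg, with an SE of 2.20) to 0.49 with a median of 0.07, including Cd4 at 0.18 ± 0.36, Cd28 at 0.26 ± 0.30 and the regulatory T cell factor Foxp3 at 0.49 ± 0.53. The checkpoint and suppression list had 5 of 8 assays below 0 and a median of −0.07, with Cd274 (PD-L1) at −0.07 ± 0.22 and Ctla4 at −0.44 ± 0.61. The 3 assays for cytotoxic and NK cells were the 2 Ifng assays and Fasl at −0.01 ± 0.48. Of the 2 B cell genes, Cr2 had −0.84 ± 0.82, and Blnk had 1.18 ± 0.87 with its replicate 14 value at 5.59 and the other day 14 values at −0.38 or below. Dendritic cell and antigen presentation genes were below 0 in 6 of 8 assays, with Ccr7 at −0.31 ± 0.25 and Cd74 at −0.21 ± 0.34. Mast cell, basophil and eosinophil markers were 3 above and 3 below 0, with Fcer1a at −0.64 ± 0.54 and the eosinophil receptor Ccr3 at 0.39 ± 0.28 and 0.25 ± 0.22 in its 2 assays. The TNF ligands had 8 of 13 assays below 0 and a median of −0.05; Tnfsf15 was the lowest at −0.90 ± 0.43 and Tnfsf8 the highest at 0.82 ± 0.49.

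Eicosanoid genes had 10 of 17 assays below 0 and a median of −0.17. Ltb4r1, the high-affinity receptor for the neutrophil attractant leukotriene B4, was at −6.86 to −5.15 (median −5.86) in 7 day 14 samples, against −4.85, −4.76 and −4.67 at day 7, with no overlap and a difference of −1.05 ± 0.31 (adjusted p = 0.216). Alox5, the lipoxygenase that starts leukotriene synthesis, has 6 assays. Assay 4 was at −4.24 to −3.62 (median −3.88) at day 14, against −3.48, −3.58 and −3.50 at day 7, without overlap and with a difference of −0.37 ± 0.16 (adjusted p = 0.359). The other 5 Alox5 assays ran from −0.29 to 0.19, and in assay 1 the replicate 14 value lay at 2.36, with no other day 14 value above −3.51. The partner protein Alox5ap had −0.28 ± 0.17, the leukotriene A4 hydrolase gene Lta4h 0.21 ± 0.16, and the secreted phospholipase Pla2g2e 0.52 ± 0.22. Without replicates 13 and 14, 12 of the 17 assays were below 0.

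Complement genes were 10 above and 10 below 0, with a median of 0.00. Masp2, a serine protease of the lectin pathway, was at −7.22 to −6.61 (median −6.90) in 7 day 14 samples, against −7.98, −7.80 and −7.53 at day 7, with no overlap and a difference of 0.86 ± 0.31 (adjusted p = 0.272). The central component C3 had 0.11 ± 0.25, and the C1q chains C1qa, C1qb and C1qc had −0.55 ± 0.41, −0.30 ± 0.42 and 0.34 ± 0.42. Of 5 coagulation genes, F3 (tissue factor, which starts clotting) was at −1.50 to 0.30 (median −0.92) in 7 day 14 samples, against −1.43, −1.83 and −1.60 at day 7, a difference of 0.82 ± 0.26 (adjusted p = 0.216). Plasma kallikrein, Klkb1, had 0.63 ± 0.32, and F2, F2r and F2rl1 lay between −0.35 and −0.07. The acute-phase gene Saa3, which macrophages and fat tissue express in mice, was at −2.60 to 0.41 (median −1.22) at day 14, against 0.70, 1.18 and −0.17 at day 7, a difference of −1.57 ± 0.68 (adjusted p = 0.359). Saa1, another serum amyloid A gene, did not overlap between 5 day 14 and 2 day 7 values, at −1.77 ± 0.92.

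TGF-beta and BMP superfamily genes were above 0 in 16 of 28 assays, with a median of 0.09, equal to that of all assays. Of the 28, 4 had an unadjusted p under 0.05, all higher. Over all assays tested, 56 of 572 (9.79%) were higher at that threshold, so the list is not set apart by this count. Ltbp4, which holds latent TGF-beta in the matrix, was at −3.22 to −1.69 (median −2.64) in assay 1 at day 14, against −3.91, −2.98 and −3.83 at day 7, a difference of 0.97 ± 0.28 (adjusted p = 0.216), and assay 2 gave 0.58 ± 0.31. Tgfbr1, the type I TGF-beta receptor, was at −0.11 to 0.92 (median 0.15) in 7 day 14 samples in assay 2, against −0.33, −0.22 and −0.29 at day 7, without overlap and with 0.59 ± 0.19 (adjusted p = 0.224), whereas assay 1 gave 0.13 ± 0.22. The ligand genes Gdf6 and Inhbb had 1.19 ± 0.54 and 0.45 ± 0.21. Tgfb1 had 0.27 ± 0.22 and Tgfb2 −0.20 ± 0.23. Acvr2b, an activin receptor outside the list, was at −7.24 to −5.75 (median −6.32) at day 14, against −7.84, −7.74 and −7.33 at day 7, with all 8 day 14 samples above and a difference of 1.26 ± 0.40 (adjusted p = 0.216). The 5 matrix and remodelling genes ran from −0.45 to 0.27, with the matrix proteins Tnc at −0.45 ± 0.29, Fn1 at −0.09 ± 0.19 and Spp1 at −0.21 ± 0.27.

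Further receptors, enzymes and growth factors had an unadjusted p under 0.05 in at least 1 assay. Ccrl1 (now Ackr4), an atypical receptor that removes Ccl19 and Ccl21, was at −6.85 to −5.71 (median −6.70) at day 14, against −7.86, −7.86 and −6.74 at day 7, with 4 of 8 day 14 samples above all day 7 samples and a difference of 1.01 ± 0.32 (adjusted p = 0.216). Fgf23, best known as a bone hormone controlling phosphate, had −1.10 ± 0.47 (adjusted p = 0.359), but the difference on panel A was 0.10. Prdx5, a peroxide-reducing enzyme, was at −0.64 to 0.24 (median −0.34) at day 14, against 0.30, 0.22 and 0.13 at day 7, a difference of −0.47 ± 0.22 (adjusted p = 0.359). Hrh1, a histamine receptor, was at −7.29 to −6.24 (median −6.63) in 7 day 14 samples in assay 1, against −7.15, −8.58 and −7.36 at day 7, with 6 of the 7 above all day 7 samples and a difference of 1.01 ± 0.30 (adjusted p = 0.216), which was 0.58 without day 7 replicate 2. Its assay 2 rested on 3 day 14 and 2 day 7 values and gave 0.17 ± 0.75. The growth factor gene Hgf gave 0.53 ± 0.17, 0.40 ± 0.22 and 0.59 ± 0.37 in its 3 assays.

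Adipocyte markers were above 0 in 8 of 9 assays, with a median of 0.39. Lep, the gene of the fat hormone leptin, was at −10.38 to −5.84 (median −8.69) in 7 day 14 samples, against −11.65, −11.59 and −8.24 at day 7, a difference of 2.44 ± 1.06 (adjusted p = 0.359), and 3 of the 7 day 14 samples lay above all day 7 samples. Resistin, Retn, had 2.11 ± 1.43. The adipocyte-defining genes Adipoq and Cfd had 0.32 ± 1.54 and −0.38 ± 1.69, with Adipoq at −11.08 to −0.19 (median −4.28) at day 14, against −4.75, −6.70 and −3.08 at day 7. In replicate 9 of day 14 the Adipoq, Cfd and epithelial Krt8 reactions all came late, 6.92, 6.70 and 4.44 cycles after the day 14 median. Krt8 had 2.75 ± 1.46 from 5 day 14 values, which ran from −9.63 to −2.79. The part of fat or epithelial tissue taken with the implant in other differences was not tested.

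The reference assays had differences of their own, none past the adjusted threshold. Among those that set the scale, Tbp had 0.30 ± 0.13, at an unadjusted p under 0.05, Gapdh −0.05 ± 0.11 and Ywhaz 0.04 ± 0.12. Gusb, a lysosomal enzyme gene often used as a reference, was higher at day 14 in each of its 3 assays, by 0.37 ± 0.13, 0.35 ± 0.14 and 0.42 ± 0.15 (adjusted p = 0.272, 0.326 and 0.27). Over the 20 assays of housekeeping genes the median was 0.05, and −0.02 with Cq centred on the median. Centring also turned the small medians of the interferon, T cell, mast cell, complement and adhesion lists to between −0.08 and 0.00, while those of neutrophil markers, CC chemokines, classical activation and adipocyte markers kept their sign. The 20 housekeeping assays ran from −0.43 to 0.87, the highest being B2m at 0.87 ± 0.88. The differences of Itgb2, Myd88 and Irak2 are thus of a size also seen among housekeeping genes. The same holds for every other named assay within that range, among them Jun, Klf6, Csf2ra, Ptprc, Hdac5 assay 3, Pparg, Tgfbr1 assay 2 and Alox5 assay 4.

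The 2 panels that carry both days give a pairing of samples by plate. Of the 540 assays with a value in all 4 of these samples, the differences on panels A and B had the same sign for 324 (60%). Of the 74 assays at unadjusted p under 0.05, 72 could be compared, and 64 of them had both panel differences in the direction of the model, which these samples helped to set. Over all 540 assays that count was 277.

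Of the 76 assays not tested, 17 had no value in any of the 11 samples, among them Il17a, Il9, Il20 and Il24, 21 had a value in some day 14 sample and in no day 7 sample, and 10 the reverse. With 8 samples against 3, more day 14 samples can give a value. Itgb6, an epithelial integrin chain, had a value in 7 of 8 day 14 samples and in 0 of 3 day 7 samples, with a median Cq of 27.2. Cxcl17, a mucosal chemokine, had a value in 7 of 8 against 1 of 3, Il5, the eosinophil growth factor, in 6 of 8 against 1 of 3, and Oit1 in 5 of 8 against 0 of 3. The type 2 cytokine Il4 had a value in 1 of 8 day 14 and 0 of 3 day 7 samples, and Il13 assay 1 in 3 of 8 and 1 of 3. Apart from Itgb6, the day 14 median Cq of these genes was 28.4 to 30.9; they were picked with their values known.

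Tumor-bearing mice of the same days, which are other animals measured partly on the same panels, give a second view of the interval. Day 14 minus day 7 in these mice had 1 of 571 assays (0.175%) past an adjusted p of 0.05, Ela2, and 50 (8.76%) at an unadjusted p under 0.05. Over the 564 assays tested in both conditions, the differences in healthy and tumor-bearing mice had the same sign for 370 (65.6%), with Pearson's r = 0.159 across assays, which share plates and reference assays. Among the assays at unadjusted p under 0.05 in healthy mice, r was −0.034. Of the healthy assays at unadjusted p under 0.05, 60 of 73 (82.2%) had the same sign in tumor-bearing mice, 47 of 56 higher and 13 of 17 lower. Il4ra had −0.48 ± 0.18 in tumor-bearing mice, Ltb4r1 −0.78 ± 0.31, Nos2 −0.87 ± 0.46, Ltbp4 assay 1 0.91 ± 0.32, Gusb assay 3 0.42 ± 0.15 and Irak2 0.42 ± 0.12, each in the direction seen in healthy mice. Gpr17 had 0.38 ± 0.30 and Acvr2b 0.11 ± 0.40. The 13 assays of opposite sign include the 3 lower neutrophil assays, with 0.47 ± 0.50 for S100a9, 0.26 ± 0.64 for S100a8 assay 1 and 0.29 ± 0.33 for Il8rb in tumor-bearing mice. They also include Ifng assay 1 at 1.41 ± 0.86, F3 at −0.25 ± 0.26, Hrh1 assay 1 at −0.57 ± 0.30 and Lep at −2.40 ± 1.23 in these mice.

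**Figure D5:**
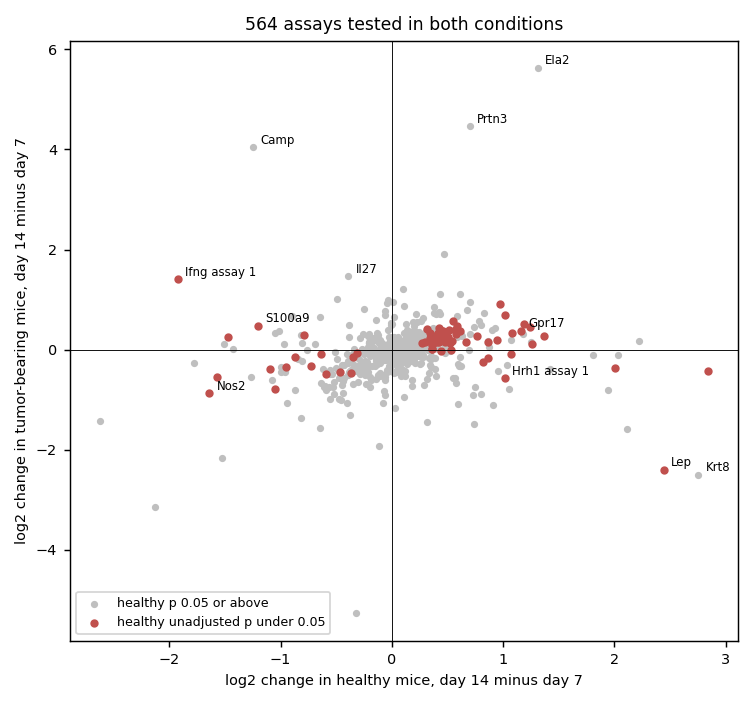
Difference day 14 minus day 7 in healthy mice (horizontal axis, log2) against the same difference in tumor-bearing mice (vertical axis, log2) for the 564 assays tested in both, 1 point each; coloured points had an unadjusted p under 0.05 in healthy mice. Camp and the proteases Prtn3 and Ela2 lie far up in tumor-bearing mice, and Lep and Krt8 lie at the lower right.

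No assay showed a change between days that differed between healthy and tumor-bearing mice at an adjusted p under 0.05 in the test of the difference itself. That test covered 564 assays with 0 past the threshold (0%) and 21 (3.72%) at an unadjusted p under 0.05. The smallest p-values below 0 were those of Il27, Camp and Ela2. In healthy mice, Camp averaged −10.07 ± 1.96 at day 14 (SD over 7 samples), against −8.82 ± 0.69 at day 7 (SD over 2 samples). In tumor-bearing mice, it averaged −5.38 ± 1.65 at day 14 (SD over 8 samples), against −9.36 ± 0.31 at day 7 (SD over 3 samples). The healthy difference minus the tumor-bearing one was −5.29 ± 1.44 for Camp (limma adjusted p = 0.25), −1.86 ± 0.49 for the cytokine subunit gene Il27 (0.25) and −4.32 ± 1.36 for Ela2 (0.48). Above 0, it was 1.58 ± 0.42 for Hrh1 assay 1 (0.25), 1.64 ± 0.55 for the keratin Krt7 (0.48) and 4.85 ± 1.60 for Lep (0.48). In healthy mice alone the day differences were −0.39 ± 0.35 for Il27 and 0.73 ± 0.39 for Krt7. For S100a9 the difference between conditions was −1.68 ± 0.70 (limma adjusted p = 0.99), so the lower day 14 values of the calprotectin gene in healthy mice were not shown to differ from the course in tumor-bearing mice.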

How the data were processed

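Scaffold RNA was reverse transcribed and run on OpenArray panels, per the labels' protocols. The deposited raw table holds Cq values, which have no fixed range and are treated as a score, and per the file headers the authors' second table holds normalized values, which are ratios on a linear scale. These ratios equal 2 to the power of the mean Cq of 5 of the 16 assays marked as references minus the assay's Cq, within 0.000148 cycles, as found from the values. The software that called Cq is not given in the sources used here.

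The log2 ratios of all 28 samples were fitted with limma 3.58.1 (R 4.3.3), with 1 mean per condition and day and panel as a random block (statmod 1.5.0, correlation 0.054), with Benjamini-Hochberg adjustment over the assays of a contrast. An assay was tested with at least 2 values in each group and values in at least 50% of 1 group. Reactions without a value stayed missing. The limma fit was checked on simulated data with the same spread in all groups and no outlying reactions. That check does not cover the wider spread and the outlying reactions of day 14. The number of samples limits the precision: the median standard error was 0.30.

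Named are the 12 smallest p-values per direction among assays with a value in all 11 samples, the 2 smallest of each of 26 gene lists, 3 per direction for the difference between conditions, and further assays of those genes. Other genes of the lists, and Fos, Hgf and Saa1, were named after their values were seen. Some genes that the rule names are not reported here. The comparison and the lists were chosen with earlier results of these data known. Old symbols were updated from RefSeq accessions (618 of 648 assays matched). Alternatives were other normalizations, blocks, filters and samples.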

Additional observations from a re-analysis of the deposited data

Results flagged for a closer look

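Among the named assays and the count of assays with a value, 77 groups of 5 to 8 day 14 values could be examined for 1 sample lying far from the others, and 9 had one. Chance flags about 1 in 20 groups, and the days with 3 samples were not examined. Of the 9, 4 came from replicate 14 and 2 from replicate 13. In replicate 14, Blnk was at 5.59, Alox5 assay 1 at 2.36, Il1b assay 2 at 3.21 and Alox5 assay 6 at −1.65 log2 units, each far above the other day 14 samples. In replicate 13, Alox5 assay 2 was at −1.85 log2 units, above the others, and 475 assays had a value, below the others. Ccl6 was high in replicate 12, at 2.51, Itgam was high in replicate 9, at 0.94, and Cd14 was low in replicate 7, at −0.58 log2 units.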

How the results depend on the processing

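No assay passed the adjusted threshold in limma in 21 of the 26 other settings. Of these, the setting with no filter beyond 2 values per group kept the same 572 assays, so it repeats the main fit. Leaving out each of the 11 samples in turn gave 0 to 1 higher (Gpr17, without replicate 13) and 0 lower assays past it, and 30 to 64 higher and 7 to 27 lower assays at unadjusted p under 0.05. The other settings with a call were panel as a fixed block (1 higher, Atrn), without panel D (1 higher, Atrn), panels A and B alone (2 higher, Atrn and C8g; 1 lower, Ifng assay 1) and, chosen after seeing the data, without replicates 13 and 14 (1 higher, Gpr17; 1 lower, Ifng assay 1). The unadjusted counts, 56 higher and 18 lower, became 31 higher with panel as a fixed block, 28 and 30 with Cq centred on the median, 26 and 8 with missing reactions at the sample's lowest value, 25 higher on panels A and B, 32 and 9 with the 11 samples alone, 36 higher with the 14 healthy samples and 30 higher among assays with a value in all 11. For the difference between conditions, a fixed panel block gave 1 lower call (Prtn3) and 16 lower at the unadjusted threshold, lowest-value filling gave 5 lower, and leaving out samples gave 0 to 1 lower calls (Camp, without replicate 14), 7 to 16 higher and 5 to 11 lower. The difference in assays with a value was −24 to −8.14 over left-out samples. No paired analysis was possible because replicate numbers run through all groups and none is shared; samples that share a plate were compared through the fixed panel block and through panels A and B. Of the 77 named assays, 51 kept their direction in every setting. Signs turned over left-out samples for Sele (−0.014 to 1.10), Muc1 (−0.013 to 0.27), Alox5 assay 1 (−0.63 to 0.36), Alox5 assay 6 (−0.53 to 0.094), Csf3 assay 2 (−0.97 to 0.82), Hdac5 assay 2 (−0.031 to 0.27), Il1b assay 2 (−0.80 to 0.32), Ifng assay 2 (−0.40 to 0.22) and Hrh1 assay 2 (−0.71 to 0.79). Filling missing reactions with the lowest value turned Itgam (0.52), Pparg assays 1 and 2 (−1.14, −2.14), Ifng assay 2 (3.11), Cr2 (1.10), Ccl25 (−1.67), Ifnar1 (−2.66), Masp2 (−1.09), Tgfbr1 assays 2 and 1 (−2.06, −1.19), F3 (−1.71), Krt8 (−2.76), Gusb assay 1 (−2.62), Hrh1 assays 1 and 2 (−0.96, −0.51), Camp (1.26), Csf3 assay 2 (−0.16), Hdac5 assay 1 (−1.06) and Il1b assay 2 (0.0082). Of these, Itgam, Csf3 assay 2 and Il1b assay 2 had a value in all 11 samples, so none of their reactions in the 2 groups was filled. The fit also holds the other samples of the series, where reactions were filled as well. A fixed panel block turned Alox5 assay 6 (0.079), Il1b assay 2 (0.34) and Tgfbr1 assay 1 (−0.12), and leaving out panel D turned the same 3 (0.14, 0.64 and −0.18). Panels A and B alone turned Fcer1a (0.64), Tnfsf8 (−0.48) and Alox5 assay 1 (−0.39), and a Cq limit of 28 turned Ifng assay 2 (0.20) and Fcer1a (0.35). Csf3 assay 2 was −0.022 without a panel block, −0.035 with Cq centred on the median and −0.013 with the 14 healthy samples. Alox5 assay 1 was −0.63 without reactions over 4 cycles from the group median and −0.55 without replicates 13 and 14, where Hdac5 assay 2 was −0.10. The cause of these turns was not tested. Low abundance limits detection: 76 assays could not be tested.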
